A study of Mus musculus with 4 samples.

Results

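The small leucine-rich proteoglycans are secreted matrix proteins, and 9 of their genes were followed here: Lum, Dcn, Bgn, Ogn, Fmod, Prelp, Aspn, Kera and Epyc. The genes were picked by family name, at a time when earlier results of these data were known, and all 9 were found among the 34866 genes of the deposited expression table. RNA came from the otic vesicle, the epithelial sac that forms the inner ear, dissected from mouse embryos of strain C57/BL6 at embryonic day 11.5. Wild type and the Meis2 mutant had 2 libraries each, called WT 1, WT 2, KO 1 and KO 2 below. Meis2 encodes a homeodomain transcription factor, and the labels call the mutants only Meis2 mutant or knockout. The sources used here do not give the allele, the breeding or the number of embryos in a library, so p-values speak only for how far these libraries vary, and that variation may be technical. Values are TPM, a transcript abundance scaled to transcript length and to the same total in every library, so levels can be compared between genes but sequencing depth is unknown.

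Meis2 transcripts stood at 79.0 (WT 1), 88.7 (WT 2), 73.2 (KO 1) and 76.6 TPM (KO 2), a log2 difference of -0.16 (SE 0.087). The deleted part of the gene is unknown here, so a level over the whole gene does not check the genotype labels. The libraries each listed between 20829 and 21685 genes above 0 TPM. Summed neuronal markers, led by Tubb3 and Neurod1, were lower in the libraries numbered 1 (241 TPM in WT 1, 192 in KO 1) than in those numbered 2 (436 TPM in WT 2, 627 in KO 2). Summed erythroid markers, led by Hbb-y and Hba-a1, ran from 5687 TPM in WT 1 to 12537 TPM in WT 2.

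Each protein of this family folds into a curved stack of leucine-rich repeats. Several of them bind collagen and help to set the width and spacing of its fibrils. Most carry sulfated sugar chains, chondroitin or dermatan sulfate on decorin and biglycan and keratan sulfate on lumican, keratocan and fibromodulin. Decorin and biglycan also bind growth factors of the TGF-beta family and several cell surface receptors. Connective tissue cells are the usual source, and in the developing ear the periotic mesenchyme, which later forms the cartilage capsule, lies directly around the vesicle.

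The genes lie in 3 clusters and at 1 separate site of the mouse genome (GRCm38, GENCODE M21). On chromosome 10, Dcn (97479609 to 97518143), Lum (97565128 to 97572703), Kera (97606879 to 97613692) and Epyc (97644068 to 97682454) follow each other on the plus strand within 203 kb. On chromosome 13, Aspn (49544443 to 49567565) and Ogn (49608046 to 49624501) flank the related gene Omd. On chromosome 1, Prelp (133910304 to 133921414, minus strand) lies 115.8 kb from Fmod (134037254 to 134048277). Bgn is on the X chromosome (73483602 to 73495933). Some of these genes are overlapped by genes on the opposite strand: a noncoding gene shares 1041 of the 2561 exon bases of Epyc, and an antisense gene shares 350 of the 3615 of Prelp. The sources used here do not say whether strand was used in the quantification, so reads of these pairs may not have been told apart.

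The bases just before the start site are shown for Bgn, because it was the highest member, and for Ogn and Aspn, because they share a cluster at very different levels. Each window is the 250 bases before the RefSeq start on GRCm38.p6, plus strand, 5′ to 3′, with CG dinucleotides in capitals. The Bgn window is chrX:73483351-73483600, the Ogn window chr13:49607765-49608014 and the Aspn window chr13:49544193-49544442.
Bgn: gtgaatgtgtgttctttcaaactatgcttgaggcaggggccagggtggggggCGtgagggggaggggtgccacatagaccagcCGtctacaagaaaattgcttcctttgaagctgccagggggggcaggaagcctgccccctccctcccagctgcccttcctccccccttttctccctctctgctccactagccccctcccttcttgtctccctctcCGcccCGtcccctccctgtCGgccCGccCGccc
Ogn: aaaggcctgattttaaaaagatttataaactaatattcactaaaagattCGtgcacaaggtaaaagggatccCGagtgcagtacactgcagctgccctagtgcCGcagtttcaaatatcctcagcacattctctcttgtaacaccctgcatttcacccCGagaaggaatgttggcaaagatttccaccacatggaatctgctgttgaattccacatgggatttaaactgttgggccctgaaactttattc
Aspn: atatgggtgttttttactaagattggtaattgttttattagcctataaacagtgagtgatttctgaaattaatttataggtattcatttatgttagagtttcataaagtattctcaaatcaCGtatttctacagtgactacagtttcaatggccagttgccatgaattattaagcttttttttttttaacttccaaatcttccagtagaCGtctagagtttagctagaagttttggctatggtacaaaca
The Bgn window was 64.4% G or C with 7 CG dinucleotides, the Ogn window 42% with 4 and the Aspn window 30% with 2. Over 32851 RefSeq windows of the same length the medians were 52.4% and 6, and 81.6%, 15.9% and 1.5% of windows had a lower G and C content than Bgn, Ogn and Aspn. The letters TGACAG, the core of the motif bound by Meis proteins, were searched on both strands. They were in none of these 3 windows and in 15.9% of all windows. Of the 7 members with a RefSeq window, 1 held them (Kera, whose window lies inside an annotated exon). Lum and Dcn had no window and were not searched.

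In wild-type vesicles the members spanned more than 2 orders of magnitude. Biglycan and decorin, the 2 classical chondroitin or dermatan sulfate members, and lumican, a keratan sulfate member, made up most of the summed level. Bgn had 47.6 TPM (WT 1) and 31.5 TPM (WT 2), which placed its mean at rank 4419 of all 34866 genes. Lum was at 24.2 and 15.7 TPM, and Dcn at 9.003 and 7.58 TPM. The 2 libraries of each of these 3 genes did not reach the range of the next gene, so the order Bgn, Lum, Dcn held beyond their spread. Ogn, which encodes osteoglycin (mimecan), was at 2.69 and 1.11 TPM. Fmod, for the collagen-binding fibromodulin, stood at 1.67 and 0.980 TPM. Prelp, a proline- and arginine-rich member that binds heparan sulfate, stood at 1.67 and 0.976 TPM. Epyc, for epiphycan of growth cartilage, was at 1.34 and 0.779 TPM. These 4 genes overlapped their neighbours in the order and cannot be ranked among themselves. Kera, whose product keratocan is best known from the corneal stroma, was at 0.261 and 0.413 TPM, and Aspn, for asporin, at 0.0932 and 0.203 TPM. In the mutants Bgn and Lum overlapped, Lum lay above Dcn and Dcn above Ogn without overlap, and Kera and Aspn again came last.

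Levels differed widely within the clusters on chromosomes 10 and 13. On chromosome 10, Lum exceeded its neighbour Kera 93.0-fold in WT 1, 38.1-fold in WT 2, 191-fold in KO 1 and 148-fold in KO 2. On chromosome 13, Ogn exceeded Aspn by between 5.49-fold in WT 2 and 59.9-fold in KO 1. Fmod and Prelp on chromosome 1 were alike in WT 1 (1.67 TPM each) and WT 2 (0.980 and 0.976 TPM). In the mutants Fmod was at 4.51 and 0.998 TPM and Prelp at 2.50 and 1.67 TPM. Kera and Aspn were above 0 in every library but had means below 1 TPM, the minimum set for testing, and are described by their values only. At such low levels a ratio rests on few reads, whose number is not known.

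**Figure D1:**
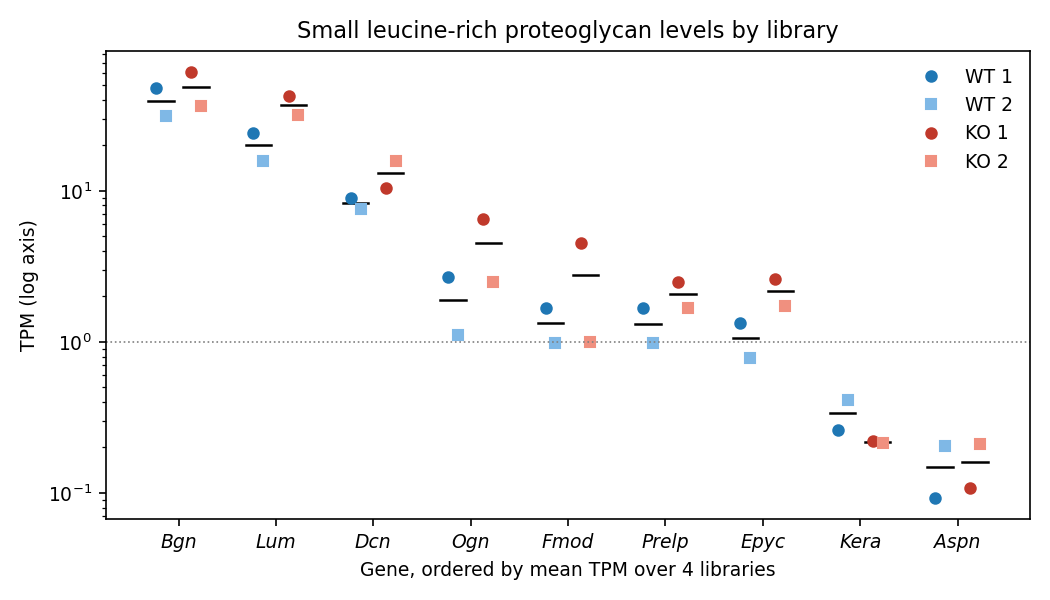
TPM of the 9 genes on a log axis, with circles for the libraries numbered 1, squares for those numbered 2 and black lines at the genotype means; the dotted line marks 1 TPM. Bgn, Lum and Dcn sit above the other genes in every library, and Kera and Aspn lie below 1 TPM in all 4.

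In Meis2 mutant vesicles the 7 members with a mean of at least 1 TPM all had a higher mean log2 level than in wild type, and none passed the test over all genes. In bulk RNA, more cells of a type and more RNA per cell cannot be told apart. Lum stood at 1.85 times the wild-type mean and Dcn at 1.58 times. The direction of Bgn and Fmod turned when 1 library was left out. Differences are KO minus WT on the log2(TPM + 1) scale, which understates changes of low genes, with the standard error (SE) and p of limma. Over all 14496 genes tested, limma called 0 at an adjusted p under 0.05 (0%), so 0 of 7 members is what the background gives. The unadjusted p was under 0.05 for 507 genes. Of all genes tested, 2.09% passed that mark with KO higher, and 1 of the 7 members, Lum, did. As a base for the direction, 61.6% of all genes tested had a positive difference, with a median of 0.03, against a median of 0.58 over the 7 members. WT 1 lay below KO 1 and WT 2 below KO 2 in all 7 members, as they did in 36.6% of all genes.

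Lum measured 24.2 (WT 1) and 15.7 TPM (WT 2) in wild type against 42.2 (KO 1) and 31.6 TPM (KO 2) in the mutants. Both mutant libraries lay above both wild-type libraries. The wild-type mean was 19.99 ± 6.01 TPM and the mutant mean 36.9 ± 7.46 TPM (SD, n = 2 libraries each). On the log2 scale the difference was 0.87 (SE 0.25; limma unadjusted p = 0.0202, adjusted p = 1.00). The difference was between 0.57 without WT 2 and 1.17 without WT 1, and KO 1 exceeded WT 1 by 0.77 and KO 2 exceeded WT 2 by 0.96.

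Dcn was at 9.003 and 7.58 TPM in WT 1 and WT 2 and at 10.4 and 15.8 TPM in KO 1 and KO 2. The genotypes did not overlap, but KO 1 lay close to WT 1. The log2 difference was 0.58 (SE 0.22; limma unadjusted p = 0.0536, adjusted p = 1.00), made up of 0.19 for KO 1 over WT 1 and 0.96 for KO 2 over WT 2. Dcn was the only member of the 7 that was higher in KO 2 than in KO 1. Without KO 2 its difference was 0.30, and without KO 1 it was 0.85.

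Bgn, the most abundant member, had 47.6 (WT 1) and 31.5 TPM (WT 2) in wild type and 61.2 (KO 1) and 36.3 TPM (KO 2) in the mutants. The genotypes overlapped because WT 1 exceeded KO 2. Its log2 difference was 0.28 (SE 0.32), smaller than its error, and it was -0.01 without WT 2 and -0.09 without KO 1.

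Ogn, one of the 2 members of class III of the family tested, had 2.69 and 1.11 TPM in the wild-type libraries 1 and 2 and 6.47 and 2.50 TPM in mutant libraries 1 and 2. KO 1 stood apart from the other libraries, and KO 2 lay just below WT 1. The log2 difference of 0.87 equalled that of Lum, but with an SE of 0.48, and it ranged from 0.32 without KO 1 to 1.42 without KO 2. Epyc, the other member of that class, was at 1.34, 0.779, 2.61 and 1.74 TPM in the same order. Its genotypes did not overlap, and its difference of 0.63 (SE 0.28; limma unadjusted p = 0.0827) was nearly the same between the libraries numbered 1 (0.63) and 2 (0.62), and ran from 0.43 without KO 1 to 0.83 without KO 2.

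Fmod measured 1.67 (WT 1), 0.980 (WT 2), 4.51 (KO 1) and 0.998 TPM (KO 2). Only KO 1 was high, and KO 2 was level with WT 2. The log2 difference was 0.53 (SE 0.54), and without KO 1 it was -0.20. Prelp, its neighbour on chromosome 1, was at 1.67, 0.976, 2.50 and 1.67 TPM. The difference was 0.41 (SE 0.28), and the genotypes were separated only by the gap from 1.667 TPM in WT 1 to 1.672 TPM in KO 2. It was 0.20 without WT 2 and 0.22 without KO 1, and at most 0.63, without WT 1. In all, 4 of the 7 members (Lum, Dcn, Prelp and Epyc) did not overlap between genotypes with KO higher, against 19.2% of all genes tested. Kera, below the minimum for testing, was at 0.220 and 0.214 TPM in KO 1 and KO 2, both below its wild-type values, and Aspn at 0.108 and 0.211 TPM.

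**Figure D2:**
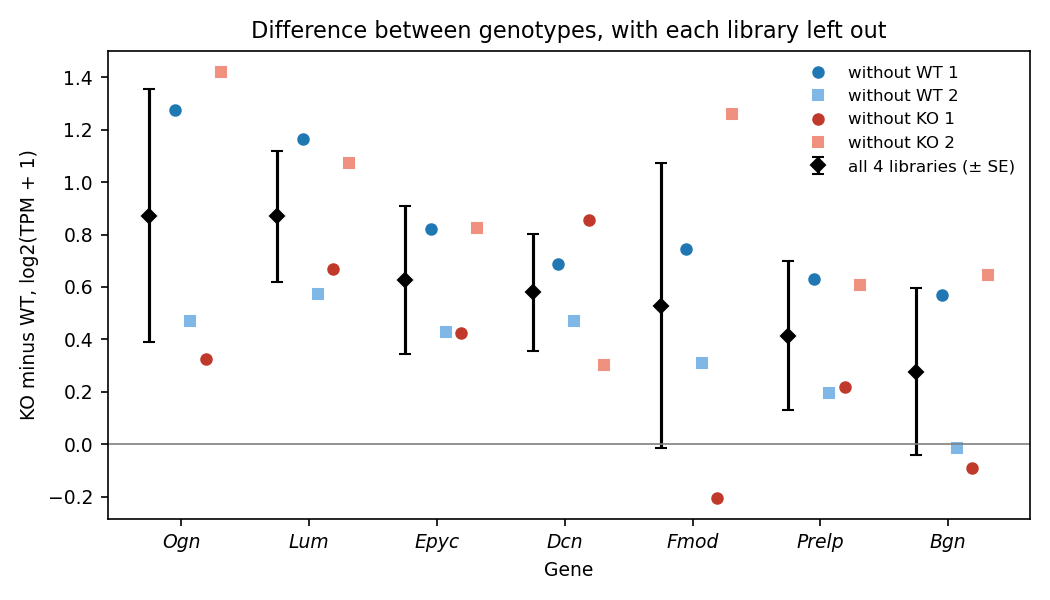
KO minus WT difference of the 7 tested genes on the log2(TPM + 1) scale; diamonds show all 4 libraries with bars of 1 SE, and coloured points show the difference with the named library left out. Lum, Dcn, Epyc, Prelp and Ogn stay above 0 throughout, while Fmod falls to -0.20 without KO 1 and Bgn to -0.09 without KO 1 and -0.01 without WT 2.

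The make-up of the family is described by the share of each gene in each library, with no test. The summed level of the 9 genes came to 88.6 (WT 1) and 59.3 TPM (WT 2) in wild type and 130.2 (KO 1) and 91.0 TPM (KO 2) in the mutants. Lum made up 27.4% and 26.5% of it in the wild-type libraries and 32.4% and 34.8% in the mutants. Bgn made up 53.8% and 53.1% in wild type and 47.0% and 39.9% in the mutants. The Lum share was higher, and the Bgn share lower, in both mutant libraries than in both wild-type libraries, and the ratio of Bgn to Lum was 1.96 and 2.00 in wild type and 1.45 and 1.15 in the mutants. The shares add up to a whole and are not independent of each other. With 2 libraries against 2, no exact permutation test can give a two-sided p below 0.333, and none was run on them. The share of Dcn overlapped, at 10.2% and 12.8% in wild type against 8.01% in KO 1 and 17.3% in KO 2.

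**Figure D3:**
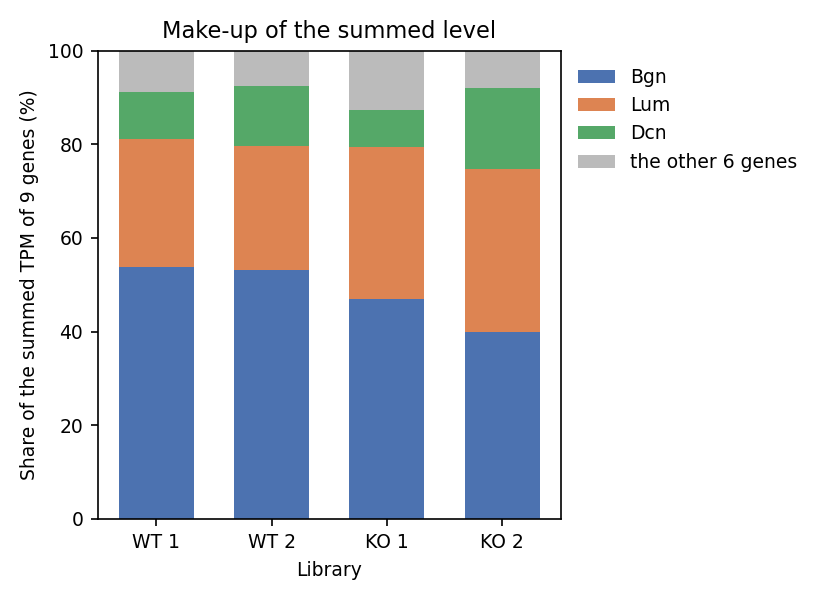
Share of the summed TPM of the 9 genes taken by Bgn, Lum, Dcn and the remaining genes, 1 bar per library. The Lum segment takes 26.5% to 27.4% in wild type and 32.4% to 34.8% in the mutants, and the Bgn segment 53.1% to 53.8% and 39.9% to 47.0%.

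Of 9 further genes of the family, only Tsku and Chadl reached a mean of 1 TPM. Tsku, for the secreted signalling modulator tsukushi, was at 15.5 and 15.9 TPM in wild type and at 18.9 and 16.0 TPM in the mutants. Chadl, a chondroadherin-like gene, was at 3.91 and 3.27 TPM and at 4.46 and 4.30 TPM. Their log2 differences were 0.14 (SE 0.12) and 0.23 (SE 0.17). Podn, Omd, Chad, Ecm2, Optc, Podnl1 and Nyx had means below 1 TPM, with single values from 0.131 TPM for Nyx in WT 1 to 1.28 TPM for Omd in KO 2.

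A list of collagens and other genes of fibril assembly, such as Fn1, Bmp1 and Loxl1, mostly stood higher in the mutants. Of 17 tested, 15 were higher and 2 lower, and none passed the test over all genes. The median was 0.35, the value of Loxl1. Col12a1, a collagen that sits on fibril surfaces, was at 18.1 and 14.3 TPM in wild type and at 35.7 and 24.4 TPM in the mutants (log2 difference 0.83, SE 0.22). Bmp1, the protease that trims procollagen and the biglycan precursor, stood at 56.8 and 57.9 TPM and at 64.5 and 68.9 TPM (0.21, SE 0.07). Col3a1, the most abundant of the list, had 327 and 280 TPM in wild type, 467 TPM in KO 1 and 283 TPM in KO 2, so that only KO 1 was high, and Fn1, for fibronectin, had a difference of -0.06 (SE 0.09). The median of this mixed list rested on KO 1: it was 0.62 for KO 1 over WT 1, 0.13 for KO 2 over WT 2, and 0.09 without KO 1. The value for KO 1 over WT 1 was that of Loxl1, which is not a collagen gene, and that for KO 2 over WT 2 was that of Col6a3. The corresponding medians of the proteoglycans were 0.63, 0.62 and 0.32. Those for KO 1 over WT 1 and for KO 2 over WT 2 were both the value of Epyc. Single members differed more: Dcn had 0.19 and 0.96, and Fmod 1.04 and 0.01. The labels do not say that the numbers pair the libraries.

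Enzymes that build the sugar chains stood near the median of all genes, which was 0.03. For chondroitin and dermatan sulfate, 18 of 21 tested genes were higher and 3 lower, with a median of 0.08 and no call. The count was 13 of 21 without KO 1 (median 0.06) and 15 of 21 without WT 1 (median 0.08). Chst15, a chondroitin sulfate sulfotransferase, was at 8.90 and 8.17 TPM in wild type and at 12.2 and 11.7 TPM in the mutants (0.45, SE 0.12). Chst14, the dermatan sulfate sulfotransferase, had a difference of 0.31 (SE 0.14), while the abundant Chsy1 and B3gat3 had 0.17 (SE 0.12) and 0.06 (SE 0.11). For keratan sulfate, 4 of 6 genes were higher, with a median of 0.02 and no call, but 2 of 6 without KO 1 (median -0.07) and 3 of 6 without WT 1 (median -0.04). B3gnt7, which extends keratan sulfate, was at 7.02 and 7.85 TPM in wild type and at 5.99 and 5.03 TPM in the mutants (-0.38, SE 0.16). Chst1, a keratan sulfate sulfotransferase, had a difference of 0.17 (SE 0.19), and the galactosyltransferase genes B4galt1 and B4galt4 had 0.00 (SE 0.10) and 0.03 (SE 0.07).

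Among growth factors and receptors listed as bound by proteoglycans of this family, 10 of 14 were higher and 4 lower, with a median of 0.06 and no call. Without KO 1, 8 of 14 were higher (median 0.05). Tgfb2, a TGF-beta ligand, was at 27.5 and 24.8 TPM in wild type and at 41.9 and 43.0 TPM in the mutants, a log2 difference of 0.68 (SE 0.09; limma unadjusted p = 0.00093, adjusted p = 1.00). Lrp1, an endocytic receptor of decorin, was at 91.9 and 94.0 TPM and at 117 and 114 TPM (0.31, SE 0.065). Tgfbr1, a TGF-beta receptor gene, had a difference of -0.02 (SE 0.07). A list of large matrix proteoglycans, link proteins and the hyaluronan synthase gene Has2 had a median of 0.09 over 6 tested genes, 5 of them higher. However, 3 of 6 were higher without KO 1 (median -0.00095) and without WT 1 (median 0.07). Vcan, for versican, differed by 0.17 (SE 0.07), the basement membrane gene Hspg2 by 0.10 (SE 0.10) and the link protein gene Hapln3 by -0.41 (SE 0.24).

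**Figure D4:**
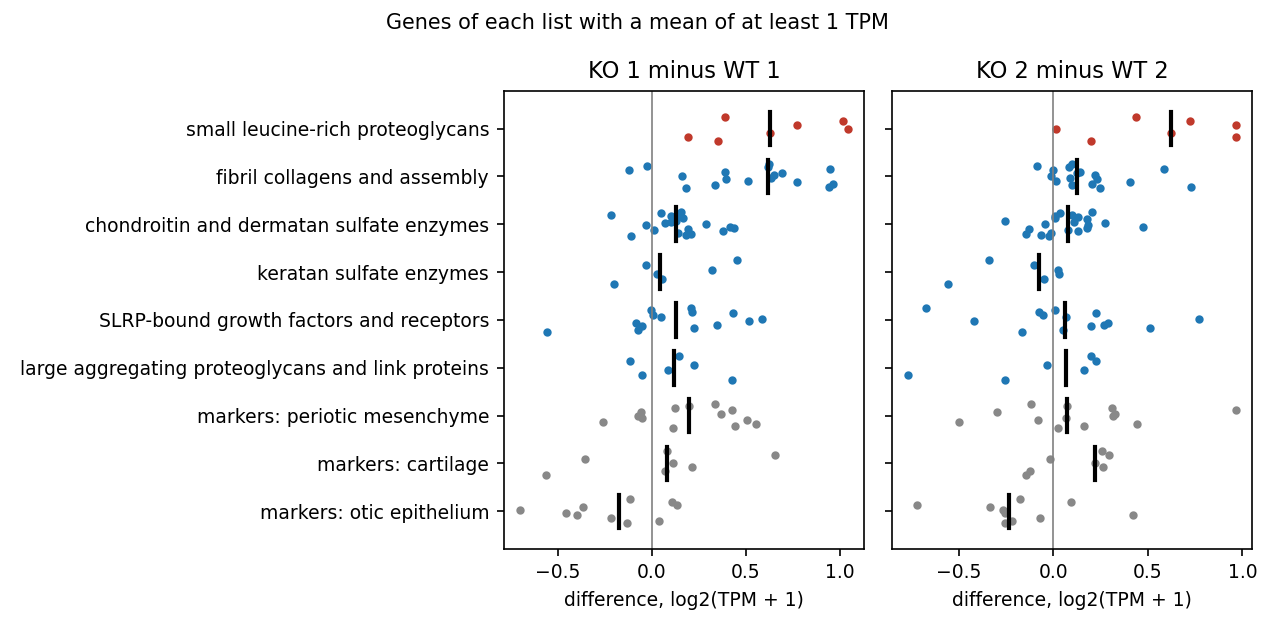
Difference of each tested gene, KO 1 minus WT 1 on the left and KO 2 minus WT 2 on the right, on the log2(TPM + 1) scale, with 1 row per gene list and black bars at the medians. The proteoglycan median is 0.63 and 0.62 in the panels, while that of the mixed list of collagens and fibril assembly genes is 0.62 and 0.13. Both proteoglycan medians are the value of Epyc. The proteoglycans run from 0.19 (Dcn) to 1.04 (Fmod) on the left and from 0.01 (Fmod) to 0.96 (Dcn) on the right.

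The dissected tissue held more than otic epithelium. Epithelial markers were abundant, with Oc90 at 912 and 724 TPM in wild type and at 561 and 602 TPM in the mutants, and Epcam at 210, 198, 180 and 188 TPM. All 13 mesenchyme markers were also detected, with summed levels of 717 and 624 TPM in wild type and 825 and 660 TPM in the mutants, and Twist1 at 157, 126, 180 and 132 TPM and Fbln1 at 137, 131, 149 and 133 TPM led them. Mesenchyme markers were higher in the mutants in 11 of 13 genes (median 0.13), in 5 of 13 without KO 1 (median -0.03) and in 7 of 13 without WT 2 (median 0.01), while epithelial markers were lower in 8 of 10 (median -0.17). Genes listed as cartilage markers were higher in 4 of 7 tested (3 of 7 without WT 2). They were led by Col2a1 at 562, 578, 652 and 693 TPM and Sox9 at 149, 108, 157 and 130 TPM. Matn1 and Matn4 were at most 2.42 and 1.95 TPM, and Acan, which marks mature cartilage, was at most 0.36 TPM. Which cells made the Col2a1 and Sox9 transcripts was not tested, so their levels do not show cartilage in the tissue. Krt5, an epidermal keratin, was at 3.28 TPM in KO 1 and at most 0.149 TPM in the other libraries, and KO 1 was also the library in which every tested proteoglycan but Dcn was highest. Over the whole list of 6 surface ectoderm markers, led by Perp and Krt15, the sums were 15.1 and 11.3 TPM in wild type, 19.4 TPM in KO 1 and 6.36 TPM in KO 2. Perp was highest in WT 1 (12.9 TPM, against 9.95 in KO 1) and Krt15 in WT 2 (2.78 TPM, against 1.61 in KO 1). Tfap2b, Trp63 and Krt14 were highest in KO 1, like Krt5. Summed endothelial markers, led by Pecam1 and Cdh5, ranged from 143 to 165 TPM in wild type and from 136 to 179 TPM in the mutants. The part of these cell types in the proteoglycan differences was not tested, and the measurement that follows is a description only.

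Set against the mean log2(TPM + 1) of the 13 mesenchyme markers in the same library, a measure added after the data were seen, Lum came to -0.42 (WT 1) and -0.76 (WT 2) in wild type and to 0.15 (KO 1) and 0.08 (KO 2) in the mutants. The genotypes did not overlap on this scale, and the difference was 0.70 against 0.87 without it. For Ogn the difference was 0.71, and its genotypes no longer overlapped. Epyc and Prelp had 0.46 and 0.25, also without overlap. Dcn (0.41), Fmod (0.36) and Bgn (0.11) overlapped. On this scale 2.75% of all genes tested had both mutant libraries above both wild-type libraries. The marker mean was highest in KO 1 (5.28) and lowest in WT 2 (4.82), so a gene with a flat level came out lowest in KO 1. The subtraction itself thus lowers this share, which is no plain base for the members. These values have no test, and the marker mean itself was higher in the mutants by 0.17.

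The genes whose level moved most like each member over the 4 libraries were found by the distance between centred log2(TPM + 1) profiles, among 2794 coding genes whose level varied by at least 0.5. With 4 libraries many genes come close, so these are descriptions. For Lum they were Zic4, a zinc finger transcription factor gene (20.9 and 15.5 TPM in wild type, 39.3 and 30.6 TPM in the mutants, distance 0.14), Pcp4l1 and Mdga2. For Bgn they were the forkhead factor gene Foxf2 (distance 0.05), Itm2a and Baalc. For Ogn they were Cpxm2 (0.13), the collagen VIII gene Col8a2 (0.16) and Mup10 (0.25). The nearest to Fmod were the homeobox gene Meox2 (0.16), the Wnt inhibitor gene Dkk2 (0.26) and Htr3a (0.27). Those of Dcn were Syngr4, Dok2 and Exd1, those of Prelp were Pdzrn3, Sertad4 and Ttpa, and those of Epyc were Glipr2, Rtp4 and the retinoic acid receptor gene Rarb. No member was among the nearest 3 of another.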

How the data were processed

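The authors deposited gene-level TPM for 2 wild-type and 2 Meis2 mutant libraries; each column sums to 1000000, so depth is unknown and no counting interval can be given. Salmon 0.9.1 and the build GRCm38 are listed in the submitters' processing notes; the sources used here do not give the gene annotation or how gene values were made from transcripts. Gene IDs without their version were matched to symbols (34582 of 34866) and to GENCODE M21 positions. limma 3.58.1 in R 4.3.3 was fitted to log2(TPM + 1) of the 14496 genes whose mean over the libraries reached 1 TPM, with genotype as the only term and a mean-variance trend, two-sided, with Benjamini-Hochberg adjustment over all of them and a threshold of 0.05. The fit was checked on simulated data with independent noise, for the size of its estimates only. That check does not gauge its power or error rate in these libraries. The members and gene lists were chosen with earlier results of these data known. Named are all members and further family genes, and from each other pathway list the 2 most abundant genes and the 2 with the smallest p. From each marker list the 2 most abundant are named, and for each tested member the 3 nearest profiles. Acan, Krt5, Matn1, Matn4, Loxl1, Col6a3, Has2 and the overlapping genes were named after their values were seen. Alternatives covered pseudocount, filter, scaling, gene type, variance trend, a replicate block and each library left out with the same genes tested. Protein sequences were not used here.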

Additional observations from a re-analysis of the deposited data

How the results depend on the processing

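Lum, Dcn, Ogn, Prelp and Epyc kept a positive difference under every alternative run for them, and no member was called under any. Bgn reversed to -0.014 without WT 2 and to -0.092 without KO 1, with 0.646 as its highest value (without KO 2). Fmod reversed to -0.203 without KO 1 and was at 1.26 without KO 2. Aspn, which was not tested, went from 0.01 to -0.15 when set against the mesenchyme markers, a comparison added after the data were seen. The median over the 7 tested members was 0.58; it ran from 0.32 without KO 1 to 0.83 without KO 2, was 0.70 and 0.26 with pseudocounts of 0.1 and 5 TPM, and 0.55 and 0.54 with median-of-ratios scaling and quantile normalization. With a mean of at least 5 TPM only Lum, Dcn and Bgn were tested, so that setting gives no such median. Where a library was left out, the lone library was assumed to vary like the others. The number of genes called by limma was 0 with all 4 libraries and from 0 to 2 with a library left out (2 without KO 1; the cause was not tested).

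The libraries numbered 1 differed from those numbered 2 in a like way in both genotypes (correlation 0.42 over genes), but nothing in the labels says that the numbers pair them. With the number as a replicate block, Lum kept 0.869 with an SE of 0.085 (limma adjusted p = 0.41), Bgn 0.277 with an SE of 0.074 (0.56), Ogn 0.872 with an SE of 0.188 (0.52), Epyc 0.625 with an SE of 0.214 (0.60) and Dcn 0.579 with an SE of 0.216 (0.61). In order of unadjusted p, Lum, Ogn, Bgn and Epyc then came before Dcn, which was second without the block. Prelp had 0.413 with an SE of 0.209 and Fmod 0.528 with an SE of 0.325. No gene was called with the block, while 1178 of the 14496 genes tested had an unadjusted p under 0.05, against 507 without it. Among the members, Lum, Ogn, Bgn and Epyc were under that mark with the block, and Dcn, Prelp and Fmod were not. With 4 libraries the block leaves very little from which to estimate the error.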
